A study of Mus musculus with 6 samples.

Results

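PU.1, the product of Spi1, binds DNA beside other transcription factors of the blood lineages, and 10 genes for such partners were followed here in mouse dendritic cells cultured with or without DB2313. They were Cebpa, Cebpb, Cebpd and Cebpe of the CEBP family, Runx1, Runx2 and Runx3 of the RUNX family, and Gfi1, Klf4 and Myb. The list of names was set with earlier results of these data known, and its members were found as the rows of the deposited count table that carry these 10 symbols among 54532 genes. Each name matched 1 row. All 10 passed the filter on low counts, as did 14174 genes in total. The control group consisted of 3 libraries of dendritic cells with no compound, and the other group of 3 libraries of dendritic cells given DB2313, which the study describes as an inhibitor of Spi1. Dose, duration, strain and age were not given in the labels of these libraries. The study's methods describe peritoneal macrophages rather than dendritic cells and give a dose of DB2313 for macrophages. Its results report RNA-seq of macrophages treated with DB2313. The table names the treated columns after SPI1 and the control columns BMDC, so each direction below rests on reading the former as the DB2313 libraries.

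CEBP proteins are basic leucine zipper factors. Cebpa starts the granulocyte and monocyte programme in progenitors, Cebpb and Cebpd act in mature and inflamed myeloid cells, and Cebpe drives the late steps of granulocyte maturation. RUNX proteins bind DNA through the Runt domain together with CBFB. Runx1 is needed for blood stem cells, Runx3 acts in dendritic cells and cytotoxic lymphocytes, and Runx2 is best known from bone and is also found in plasmacytoid dendritic cells. Gfi1 is a zinc finger repressor that favours neutrophils over monocytes, Klf4 favours monocytes, and Myb keeps progenitors dividing.

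To show what the DNA at the start sites of these genes holds, RefSeq promoter windows (GRCm38.p6, 250 bases before to 50 bases after an annotated start) were read for 8 of the 10 genes, which have 11 windows. Cebpd and Cebpe had no entry. The letters AGGAAGT (PU.1), TGTGGT (RUNX) and TTGCNNAA (CEBP) were searched on both strands. No window held the PU.1 letters, which stand in 9.35% of all 32851 windows. RUNX letters stood in 3 member windows and in 16.8% of all windows, and CEBP letters in 2 member windows and in 10.8% of all. A match describes the letters only, and the absence of one says nothing about the factor.

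The 3 windows with RUNX letters were those of the distal starts of Runx1, Runx2 and Runx3. Each held the letters as a pair on the minus strand of the window, with starts 8 bases apart, an arrangement found in 7 of the 32851 windows (0.0213%) and looked for after it was seen in these genes. The pair is shown because all members of the family carry it. The 30-base stretches are given 5′ to 3′ in the direction of transcription, with the reverse complement of the RUNX letters in capitals. The Runx1 stretch (chr16:92826025-92826054, minus strand) and the Runx2 stretch (chr17:44814583-44814612, minus strand) lie just after the start, and the Runx3 stretch (chr4:135120503-135120532, plus strand) lies before it.
Runx1: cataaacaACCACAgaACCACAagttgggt
Runx2: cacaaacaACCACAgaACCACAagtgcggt
Runx3: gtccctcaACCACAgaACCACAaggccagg

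Gfi1, one of the genes that rose below, has 2 windows, and the one at its outer start held a CEBP match. The other window with CEBP letters was that of Runx2, which did not pass below. For Gfi1 the 250 bases before the outer start are given (chr5:107725806-107726055, minus strand), with the match in capitals.
Gfi1: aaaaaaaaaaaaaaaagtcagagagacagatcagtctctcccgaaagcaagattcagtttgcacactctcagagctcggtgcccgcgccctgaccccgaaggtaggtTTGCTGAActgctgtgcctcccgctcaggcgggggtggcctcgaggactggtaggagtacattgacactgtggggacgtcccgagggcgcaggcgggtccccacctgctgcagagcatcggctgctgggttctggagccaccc

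Library totals were 16146743 to 16299657 counts in the control group and 16310491 to 19764677 in the DB2313 group. The DB2313 libraries differed more among themselves than the controls did, with a chi-square per degree of freedom of 7.99 to 19.4 between their pairs against 5.02 to 5.55, and replicates 1 and 3 were farthest apart. The mitochondrial share of counts was 2.06% to 2.41% in control and 1.46% to 1.57% with DB2313. Of the markers of dendritic cells, Itgax (168 to 176 CPM), Zbtb46 (80.0 to 91.3 CPM) and H2-Aa (1781 to 1806 CPM) were clearly present in the control libraries. Low in the same libraries were Cd209a (0 to 1 counts), Siglech (6 to 8), Clec9a (10 to 17) and Xcr1 (14 to 21). CPM is the read count scaled to a common library size. Of 16 macrophage markers, 13 exceeded 10 CPM in control, while Timd4 and Vsig4 had 0 to 3 counts in every library. In such bulk samples, fewer cells of a type and less RNA per cell cannot be told apart.

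Levels were first compared between genes as CPM per kilobase of the deposited gene length. Cebpb was the highest of the 10 in control, at 181 ± 17.4, followed by Cebpa at 78.4 ± 0.716 and Cebpe at 34.1 ± 1.85 (mean ± SD, n = 3). Runx3 (18.7 ± 2.01), Cebpd (14.8 ± 0.293), Runx1 (9.98 ± 0.402) and Klf4 (8.50 ± 0.639) came next. Myb (3.14 ± 0.497), Gfi1 (3.02 ± 0.101) and Runx2 (2.28 ± 0.451) were the lowest, and the ranges of Myb and Gfi1 overlapped. No other neighbours in this order overlapped. With DB2313 the first 5 places were the same, Klf4 and Runx1 overlapped at 10.6 ± 1.88 and 10.5 ± 0.730, and Gfi1 (4.79 ± 0.607) stood above Myb (3.68 ± 0.383) with no overlap. The length counts all annotated exons, so a gene transcribed from a short isoform is placed too low.

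To ask which partners changed with DB2313, the groups were compared by edgeR's quasi-likelihood test over all 14174 genes. Gfi1 and Cebpe, both factors of the neutrophil line, rose by 58% and 35%, and the other 8 genes did not pass. At an adjusted p under 0.05 the treated level was thus above control for 2 of the 10 members and below it for 0, where 4.66% of all genes tested were higher, 5.94% were lower and 10.6% were changed in either direction. Among the 877 tested genes with a transcription factor family in the deposited table, 10.4% were changed. At an unadjusted p under 0.05 in edgeR, 3 members were higher and 1 was lower, beside 10.9% and 12.5% of all genes tested, and DESeq2 and limma-voom also called 2 higher and 0 lower. The median log2 fold change of the 10 genes was 0.053, beside 8.2e-04 for all genes tested. The labels do not say whether the 3 libraries of a group came from separate animals, so p-values measure the spread between these libraries, which may be technical.

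**Figure D1:**
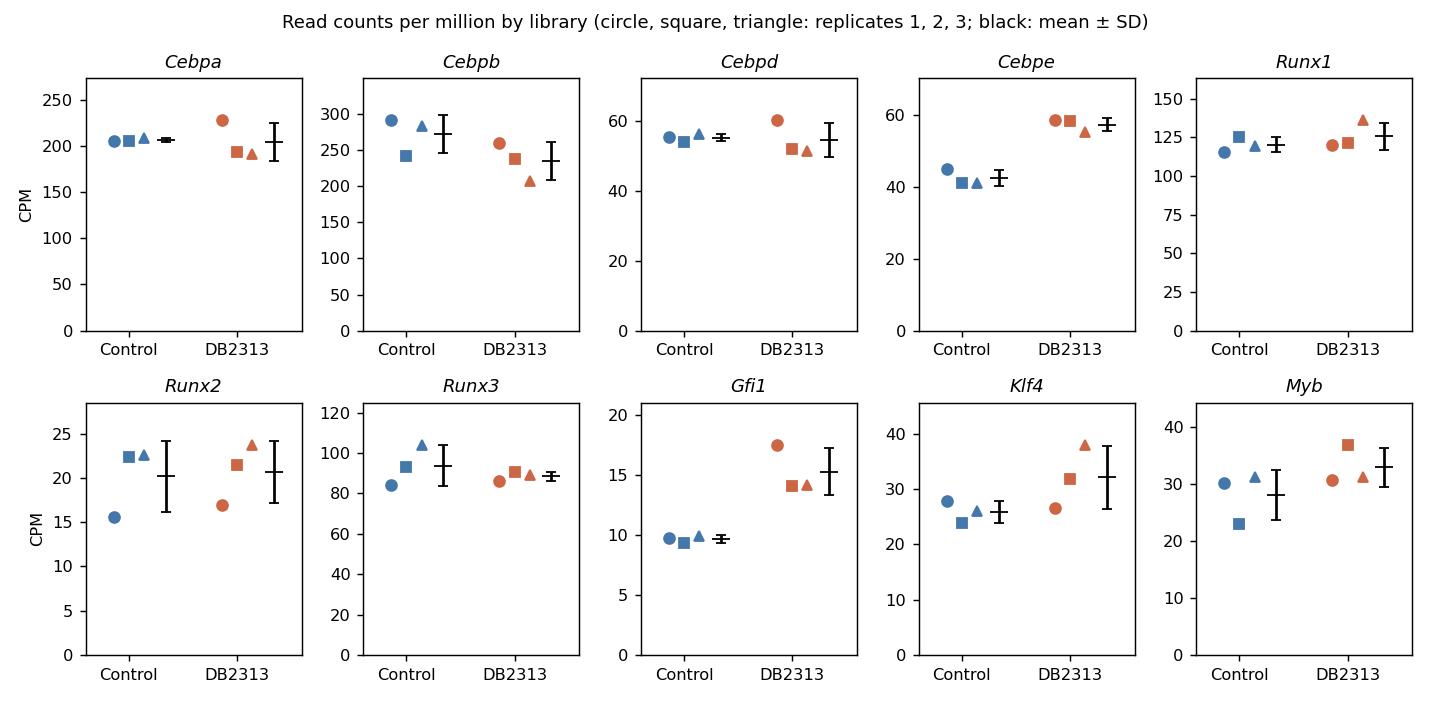
CPM (scaled read counts, y axis from 0) of the 10 genes in each of the 3 control (blue) and 3 DB2313 (red-orange) libraries, with symbols for replicates 1 to 3 and the mean ± SD in black. The libraries of the 2 groups are apart for Cebpe and Gfi1 and overlap for the other 8 genes.

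Cebpe (ENSMUSG00000052435, chromosome 14, 54710360 to 54712174, minus strand, GRCm38), which is required for the secondary granules of neutrophils, was at 45.0, 41.1 and 41.0 CPM in control replicates 1 to 3 and at 58.4, 58.2 and 55.0 CPM in DB2313 replicates 1 to 3. The lowest treated library thus lay above the highest control library, and the spread within each group was small. Its log2 fold change was 0.43 ± 0.083 (SE), a 1.35-fold rise, with a 95% interval of 0.26 to 0.61 on the log2 scale, and the edgeR adjusted p was 0.00319. It rested on 653 to 1161 counts per library. Cebpe has 2 exons in its coding transcript, and no other gene of the table overlaps it.

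Gfi1 (ENSMUSG00000029275, chromosome 5, 107716657 to 107726036, minus strand) was at 9.71, 9.28 and 9.91 CPM in the control libraries and at 17.5, 14.1 and 14.2 CPM in the DB2313 libraries. The groups did not overlap, and DB2313 replicate 1 was the highest. Its log2 fold change was 0.66 ± 0.14 (SE), a 1.58-fold rise, with a 95% interval of 0.36 to 0.96 on the log2 scale, and the edgeR adjusted p was 0.00628. The counts were 148 to 288 per library. The gene A430072P03Rik, with 0 to 12 counts, overlaps 880 bases of it on the opposite strand.

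Cebpe and Gfi1 were also the 2 members whose libraries lay apart in CPM, as those of 27.4% of all genes tested did. Both Cebpe and Gfi1 passed the adjusted threshold in all 18 alternative fits, which included 6 that each left out 1 library. Over these, the log2 fold change of Cebpe ranged from 0.36 to 0.48 and that of Gfi1 from 0.55 to 0.72.

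**Figure D2:**
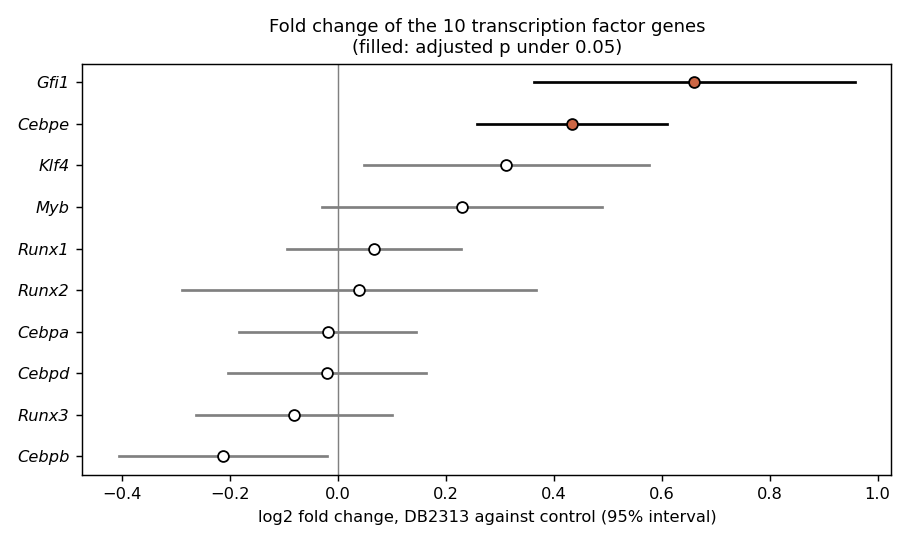
Log2 fold change of DB2313 against control (x axis) for each of the 10 genes (y axis), with bars for the 95% interval and filled symbols for an adjusted p under 0.05. Gfi1 (0.66) and Cebpe (0.43) are filled, and the intervals of Klf4 and Cebpb also leave out 0 before adjustment.

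Among the other CEBP genes, Cebpb was lower on average and did not pass. Cebpb (ENSMUSG00000056501, chromosome 2, 167688915 to 167690418, plus strand), an activator of acute-phase and inflammatory genes, was at 292, 243 and 283 CPM in control and at 260, 239 and 207 CPM with DB2313. DB2313 replicate 1 lay above control replicate 2, so the groups overlapped. The log2 fold change of -0.21 ± 0.090 (SE) had a 95% interval of -0.41 to -0.020 and an edgeR adjusted p of 0.167. With an offset for gene length the value was -0.27 and the adjusted p 0.0105, and without DB2313 replicate 1 they were -0.29 and 0.0216. Tmem189, with 1446 to 2029 counts, overlaps 908 bases of this single-exon gene on the opposite strand, and the strand setting of the counting was not stated.

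Cebpa (ENSMUSG00000034957, chromosome 7, 35119293 to 35121928, plus strand), the factor that commits progenitors to the myeloid line, was at 205, 206 and 209 CPM in control and at 228, 193 and 191 CPM with DB2313. The controls were nearly equal, with a coefficient of variation of 0.913%, while the treated libraries lay on both sides of them (10.1%). Its log2 fold change was -0.019, with a 95% interval of -0.18 to 0.15. Cebpd (ENSMUSG00000071637, chromosome 16, 15887286 to 15891031, plus strand), which is induced in inflammation, was at 55.3, 54.1 and 56.3 CPM in control and at 60.2, 51.9 and 51.6 CPM with DB2313. It showed the same arrangement, with replicate 1 above and replicates 2 and 3 below the controls, and its log2 fold change was -0.020 with a 95% interval of -0.20 to 0.16. The edgeR adjusted p of Cebpa and Cebpd was 0.923 and 0.928. Spidr, with 324 to 402 counts, overlaps 1808 bases of Cebpd on the opposite strand.

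The makeup of the CEBP family was then compared within each library, which needs no scaling between libraries. Of the summed counts per kilobase of Cebpa, Cebpb, Cebpd, Cebpe and Cebpg, Cebpe held 10.9%, 11.2% and 10.1% in control and 14.1%, 15.5% and 15.9% with DB2313. Cebpb held 58.1%, 54.3% and 57.9% in control and 51.9%, 52.3% and 49.3% with DB2313. For both genes the groups did not overlap, Cebpe being higher and Cebpb lower in all 3 treated libraries. The exact two-sided permutation p was 0.1 for each, the smallest that 3 against 3 libraries can give. The shares of Cebpa (24.7 ± 1.51% and 25.4 ± 1.02%), Cebpd (4.64 ± 0.223% and 4.77 ± 0.188%) and Cebpg (3.22 ± 0.172% and 3.55 ± 0.315%, SD, n = 3 each) overlapped. Shares of 1 total are not independent, and without the scaling for length the difference for Cebpe was 2.70 rather than 4.44 percentage points.

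**Figure D3:**
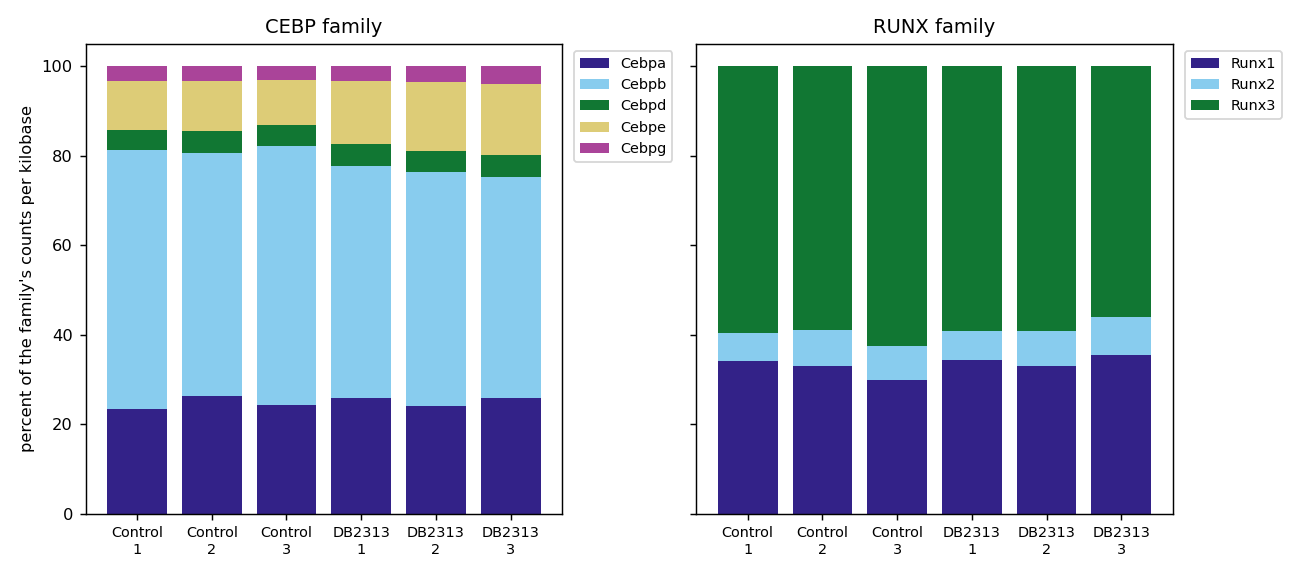
Percent of the summed counts per kilobase (y axis) held by each gene of the CEBP family (left) and the RUNX family (right) in each of the 6 libraries (x axis). The Cebpe band is 10.1% to 11.2% in control and 14.1% to 15.9% with DB2313, while the bands of the 3 RUNX genes overlap between the groups.

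None of the 3 RUNX genes passed. Runx1 (ENSMUSG00000022952, chromosome 16, 92601466 to 92826149, minus strand) was at 116, 125 and 119 CPM in control and at 120, 121 and 136 CPM with DB2313, and its log2 fold change was 0.067 with a 95% interval of -0.094 to 0.23. Runx3 (ENSMUSG00000070691, chromosome 4, 135120652 to 135177990, plus strand) was at 83.9, 93.0 and 104 CPM in control and at 86.1, 90.5 and 89.1 CPM with DB2313, with a log2 fold change of -0.081 and an interval of -0.26 to 0.10. Runx2 (ENSMUSG00000039153, chromosome 17, 44495987 to 44814797, minus strand) was at 15.6, 22.3 and 22.6 CPM in control and at 16.9, 21.5 and 23.7 CPM with DB2313, with a log2 fold change of 0.039 and a wide interval of -0.29 to 0.37. In each case the treated libraries lay within or around the control range. The edgeR adjusted p was 0.662, 0.634 and 0.918. Replicate 1 was the lowest library of its group for Runx2 in both groups, and Supt3, with 161 to 233 counts, overlaps that gene on the opposite strand.

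Within the RUNX family, Runx3 held 59.0% to 62.5% of the summed counts per kilobase in control and 56.0% to 59.1% with DB2313. Runx1 held 29.8% to 34.1% and 32.9% to 35.5%, and Runx2 6.25% to 8.02% and 6.56% to 8.45%. All 3 ranges overlapped, with an exact two-sided permutation p of 0.3 for Runx1 and Runx3 and 0.6 for Runx2. Runx3 was thus the leading RUNX transcript per length in all 6 libraries. By counts the order was the reverse, with 1879 to 2414 for Runx1 and 1365 to 1805 for Runx3. The ranking therefore rests on the deposited lengths, 12025 bases for Runx1 and 5003 for Runx3.

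Klf4 and Myb were higher on average with DB2313 and did not pass. Klf4 (ENSMUSG00000003032, chromosome 4, 55527143 to 55532466, minus strand) was at 27.8, 23.9 and 26.0 CPM in control and at 26.6, 31.9 and 38.0 CPM with DB2313. Its treated libraries were widely spread, and replicate 1 lay among the controls. The log2 fold change of Klf4 was 0.31 ± 0.12 (SE), with a 95% interval of 0.049 to 0.58 and an edgeR adjusted p of 0.134. Without DB2313 replicate 1 the log2 fold change was 0.43 and the adjusted p 0.0122.

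Myb (ENSMUSG00000019982, chromosome 10, 21124935 to 21160984, minus strand) was at 30.1, 23.0 and 31.1 CPM in control and at 30.7, 36.8 and 31.1 CPM with DB2313. The groups overlapped. Its log2 fold change was 0.23 ± 0.12 (SE), with a 95% interval of -0.029 to 0.49 and an edgeR adjusted p of 0.276.

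Spi1 itself, the target of DB2313, is given for reference. It was at 380, 345 and 371 CPM in control and at 349, 328 and 309 CPM with DB2313, with a log2 fold change of -0.15 and an edgeR adjusted p of 0.206. It passed in 1 of 18 alternatives, the offset for gene length (-0.18, edgeR adjusted p 0.0438), and with that offset and the replicate block the adjusted p was 0.122. The study calls the compound a Spi1 inhibitor and does not say that it lowers this transcript. The level of Spi1 therefore does not check the treatment.

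Because Cebpe and Gfi1 are transcribed in maturing neutrophils, the markers of that line are set beside them. Among all genes tested, 4.66% were higher and 5.94% lower. Of 10 neutrophil precursor markers, all tested, Elane (0.69 ± 0.11, log2 fold change ± SE), Fcnb (0.51 ± 0.12) and Ctsg (0.33 ± 0.082) rose, 0 fell, and the median was 0.26. Elane and Ctsg encode serine proteases of the primary granules and Fcnb encodes ficolin B. Mpo, the peroxidase of the same granules, had 0.30 ± 0.092 and an edgeR adjusted p of 0.0501. Prtn3, another protease of these granules, had 0.29 ± 0.10 and did not pass. The secondary granule genes of this list, which does not hold Mmp8, went in both directions and did not pass. Ltf (0.24 ± 0.082) and Lcn2 (0.11 ± 0.097) were above 0, and Camp (-0.29 ± 0.14) and Ngp (-0.013 ± 0.10) were below it. The summed level of this list was 6770 to 6816 CPM in control and 6931 to 7818 CPM with DB2313, and Chil3, which did not pass (0.096 ± 0.072), made up more of it than any other gene. Without Chil3 the sums were 2845, 3063 and 3220 CPM in control and 3852, 3216 and 2865 CPM with DB2313, so the groups overlapped. The number of these markers that rose was 1 without control replicate 1 and 7 without DB2313 replicate 3.

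Of 10 markers of mature neutrophils, also all tested, 3 rose and 1 fell, with a median log2 fold change of 0.15. Mmp8, a collagenase, went from 324 to 636 CPM (0.98 ± 0.090), and Ly6g (0.56 ± 0.11) and Retnlg (0.51 ± 0.13) rose too. Csf3r, the receptor for G-CSF, fell from 51.0 to 38.4 CPM (-0.41 ± 0.090). The summed level was 2896 to 3118 CPM in control and 3352 to 3846 CPM with DB2313. Without Mmp8 the sums also overlapped, at 2555, 2583 and 2826 CPM in control and 3276, 2818 and 2662 CPM with DB2313. No marker in either list was at 0. The full sums were thus higher in all 3 treated libraries, whereas those without Chil3 or without Mmp8 overlapped. Chil3 was left out as the gene with the highest level, and Mmp8 as the gene with the largest change. Leaving out a gene picked for its rise brings the groups closer by itself. The part of these markers in the rise of Cebpe and Gfi1 was not tested.

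**Figure D4:**
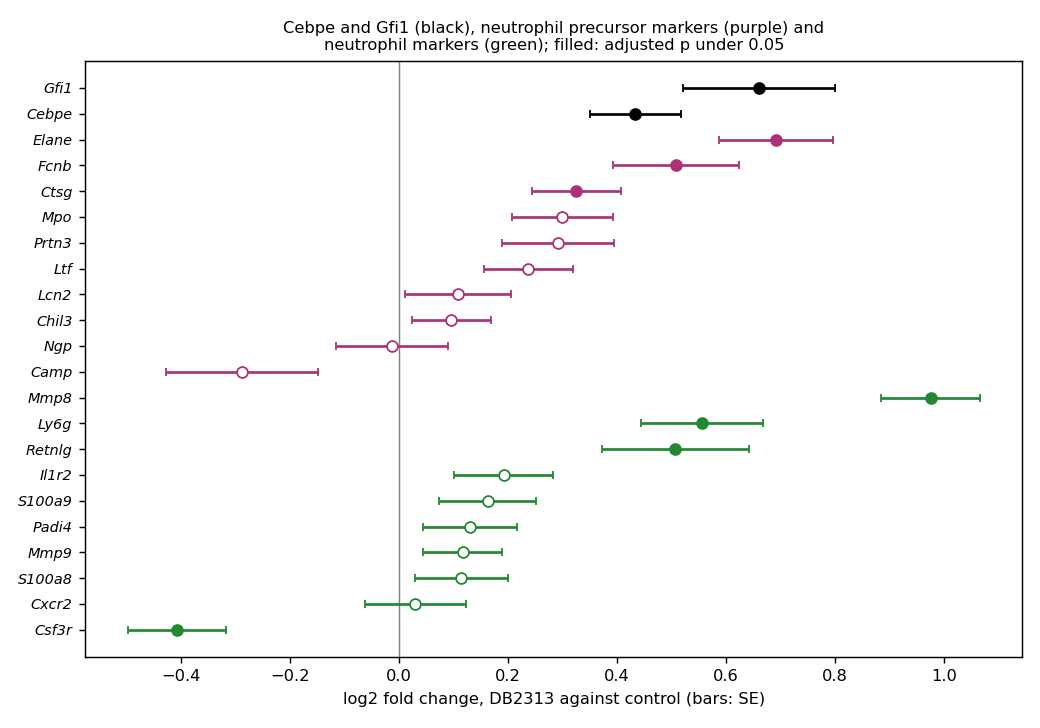
Log2 fold change of DB2313 against control (x axis, bars SE) for Cebpe and Gfi1 (black), 10 neutrophil precursor markers (purple) and 10 neutrophil markers (green), with filled symbols for an adjusted p under 0.05. Elane, at 0.69, lies near Gfi1, at 0.66, while Ngp, Camp and Csf3r lie below 0.

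The markers of other cells that such a culture could hold were counted in the same way, beside 4.66% higher and 5.94% lower among all genes tested. Mast cell and basophil markers, 11 of 12 tested, had 2 higher and 0 lower, with a summed level of 2579 to 2784 CPM in control and 2642 to 3148 CPM with DB2313, and 0 were higher without control replicate 1, control replicate 3 or DB2313 replicate 2. T and NK cell markers, 11 of 12 tested, had 0 changed, though 3 were higher without DB2313 replicate 3, and were at 321 to 396 and 313 to 456 CPM in sum. Stem and progenitor markers, 8 of 10 tested, had 1 lower, Sox4, and were at 350 to 377 and 334 to 341 CPM. Dendritic cell markers, 16 of 18 tested, had 1 higher and 3 lower with a median log2 fold change of -0.19, and macrophage markers, 14 of 16 tested, had 2 higher and 7 lower with a median of -0.31. The dendritic cell marker that rose was Clec9a, at low counts (10 to 17 in control and 42 to 72 with DB2313). The dendritic cell markers that fell numbered 7 without DB2313 replicate 1 or 3 and 2 without control replicate 1, and the macrophage markers that fell numbered 3 without DB2313 replicate 2. B cell markers were at most 6.80 CPM in sum and erythroid markers at most 23.4 CPM, with 0 changed in both. How far these lists bear on the 10 genes was not tested.

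The cofactors and relatives of the 10 genes came next, by lists written from general knowledge. Their counts, with those of the KLF and Myb relatives, stand beside 4.66% higher and 5.94% lower among all genes tested. Of 12 CEBP relatives and regulators, 3 rose and 2 fell. Trib2, a pseudokinase that directs Cebpa protein to degradation, had 29 to 43 counts in control and 112 to 136 with DB2313, and its log2 fold change was 1.66 ± 0.23 (SE, edgeR adjusted p 2.5e-04). All treated libraries lay well above all controls. Cop1, the ubiquitin ligase that works with the tribbles proteins, went from 68.9 to 54.6 CPM (-0.33 ± 0.089, edgeR adjusted p 0.0252). Batf2 rose (0.59 ± 0.12) and Nfil3 fell (-0.28 ± 0.072). Trib1, Cebpg and Ddit3, a CEBP partner of the stress response, had log2 fold changes of 0.0054, 0.074 and 0.012.

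Of the RUNX cofactors, 17 of 18 names were in the table and 16 were tested, with 0 higher and 2 lower. The 2 were the corepressors Tle3 (-0.33 ± 0.075) and Cbfa2t3 (-0.30 ± 0.082). Cbfb, the partner that stabilises all RUNX proteins on DNA, was at 114 to 122 CPM in control and 117 to 123 CPM with DB2313, with a log2 fold change of 0.0080. Of 10 corepressors and relatives of Gfi1, only Insm1, another zinc finger repressor, passed, from 31.1 to 12.9 CPM (-1.27 ± 0.17). Kdm1a, the histone demethylase recruited by Gfi1, had -0.16 ± 0.089 and an edgeR adjusted p of 0.315.

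Among the KLF relatives of Klf4, the genes that passed were lower. Of 13 tested, 0 rose and 3 fell, namely Klf6 (-0.47 ± 0.066), Klf8 (-0.80 ± 0.20) and Klf9 (-0.53 ± 0.16), and the median was -0.095. Klf6, an abundant factor of activated myeloid cells, was at 342 to 376 CPM in control and 255 to 263 CPM with DB2313. Klf4 itself was 0.31, and the difference between it and its relatives was not tested. None of Mybl1, Mybl2 and Mybbp1a, a protein that binds Myb, passed, and Mybl2, which acts in dividing cells, had a log2 fold change of 0.19.

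Genes known as targets of the 10 factors changed in both directions. Of 24 CEBP targets, 2 rose and 5 fell, with a median log2 fold change of -0.082. Those that rose were Mmp8 and Elane, both described above. Il1b, Csf3r and Itgam fell, as did Arg1, the arginase of alternatively activated cells (-1.76 ± 0.12, from 59.1 to 17.5 CPM), and Cd14, the LPS coreceptor (-0.88 ± 0.080, from 171 to 92.8 CPM). Of 14 RUNX targets tested, 1 rose (Mmp13, a collagenase, 1.97 ± 0.16) and 2 fell (Spp1, -0.91 ± 0.12, and Csf1r, -0.29 ± 0.083).

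Of 19 targets of Gfi1, Klf4 and Myb, 1 rose and 5 fell. The gene that rose was Thbd (0.81 ± 0.23, edgeR adjusted p 0.0376), from 4.66 to 8.19 CPM. Egr2 had -0.67 ± 0.12 and went from 27.2 to 17.1 CPM. Retnla (-0.67 ± 0.10), Mrc1 (-0.71 ± 0.14) and Csf1r fell as well. In the same list Cdkn1a (0.17 ± 0.068), Id2 (-0.057 ± 0.082) and Csf1 (-0.0053 ± 0.086) did not pass. Whether Gfi1 acted on any of these genes here was not tested. The 3 target lists together were read only by these counts, beside 4.66% higher and 5.94% lower among all genes.

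The genes whose pattern over the 6 libraries lay closest to Cebpe and Gfi1 were looked up among 9443 protein-coding genes. Likeness was the root mean square distance between log2 CPM values centred on the mean of the 6 libraries. For Cebpe the closest were Clec12a (0.027), an inhibitory lectin of myeloid cells, Speg (0.032) and Gclm (0.032), a subunit of the enzyme that starts glutathione synthesis. For Gfi1 they were Tspan32 (0.041), a tetraspanin of blood cells, Arl6ip5 (0.057) and Acp6 (0.067). With 6 libraries in 2 groups, such a distance mostly reflects a like difference between the groups, and the log2 fold changes of the 3 genes near Cebpe were 0.39 to 0.46. Of these, Speg did not pass (0.42 ± 0.14, SE, edgeR adjusted p 0.0641).

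**Figure D5:**
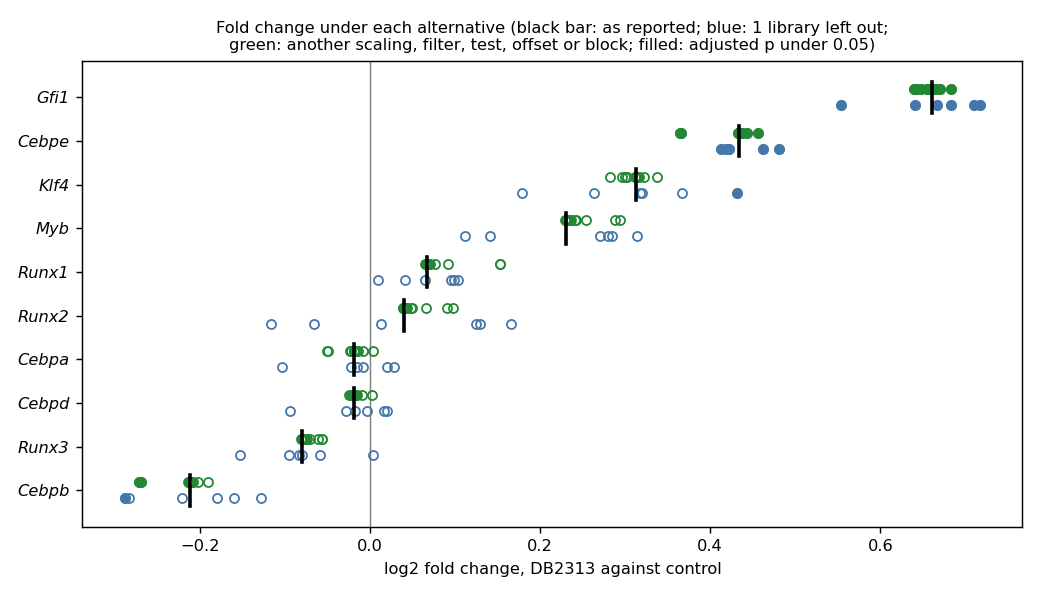
Log2 fold change of DB2313 against control (x axis) for each of the 10 genes (y axis) as reported (black bar), with 1 library left out (blue) and under 12 other settings (green), filled where the adjusted p was under 0.05. Cebpe and Gfi1 are filled throughout, Cebpb in 3 of 18 and Klf4 in 1 of 18.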

How the data were processed

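RNA-seq was done on 3 control and 3 DB2313-treated libraries of mouse dendritic cells. The deposited table holds, for every gene, the unnormalized whole-number count of reads that the authors assigned to it and the length in base pairs. The submitters' processing notes name CASAVA 1.8, HISAT2 2.0.5 and featureCounts 1.5.0-p3, whereas the methods of the study name LifeScope. Build, strandedness and handling of multiply mapped reads are not given in the sources used here. All 10 genes had the same start and end in GENCODE M21, so coordinates are GRCm38.

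Counts were tested with the quasi-likelihood test of edgeR 4.0.16 (R 4.3.3, TMM, filterByExpr, group only, prior count 0.125), with Benjamini-Hochberg adjustment over all genes tested, and called at an adjusted p under 0.05. The SE is the log2 fold change over the root of F, and intervals are 95%. CPM uses TMM-scaled library sizes. DESeq2 1.42.0 and limma 3.58.1 (voom) were alternatives, with other scalings, filters, a length offset, a replicate block and omission of each library. Scripts were tested on simulated data. The labels gave no batch.

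The 10 genes and all gene lists were chosen with earlier results of these data known. Named besides the members were, per cofactor or target list, up to 4 genes with the lowest adjusted p under 0.05, and 3 genes most like each changed member (mean log2 CPM of at least 3, pseudocount 0.5 CPM). Other genes were named after their values were seen.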

Additional observations from a re-analysis of the deposited data

How the results depend on the processing

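Cebpe and Gfi1 kept their direction and their call in all 18 alternatives, with adjusted p up to 0.0280 and 0.0363, and Runx1 and Myb kept their direction and stayed above the threshold. Cebpb passed with the gene length offset (-0.27), with that offset and the replicate block (-0.27) and without DB2313 replicate 1, which gave 1 lower member in each, and it ranged from -0.29 to -0.13 over the fits that left out 1 library. Klf4 passed without DB2313 replicate 1 and ranged from 0.18 to 0.43. Scaling by library totals turned Cebpa to 0.0035 and Cebpd to 0.0027. Over the fits that left out 1 library Cebpa ranged from -0.10 to 0.027, Cebpd from -0.094 to 0.019, Runx2 from -0.12 to 0.17 and Runx3 from -0.15 to 0.0032, so the sign of these 4 depended on the setting. The number of members lower ranged from 0 to 1 over these fits. The cause was not tested in any of these cases.

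Over all genes, 328 to 1097 were higher and 411 to 1311 lower when 1 library was left out, the fewest without DB2313 replicate 2 and the most without DB2313 replicate 3. Scaling by library totals gave 51.0% of changed genes as higher, against 44.0% as reported. Counts in the lists moved with them, an alternative added after the data were seen. The CEBP targets had 2 to 7 higher and 3 to 8 lower, the RUNX cofactors 0 to 5 lower and the KLF relatives 1 to 4 lower. The targets of Gfi1, Klf4 and Myb had 0 to 2 higher and 3 to 5 lower.

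Libraries with the same replicate number did not deviate together. Their deviations from the means of their groups correlated at 0.0035, -0.024 and -0.12, and no DB2313 library correlated best with the control of its own number. With the replicate block, 502 genes were higher and 629 lower, Cebpe was at 0.43 (adjusted p 0.0096) and Gfi1 at 0.66 (0.0120).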
